A study of Mus musculus with 7 samples.

Results

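The genes described here make the parts that build ribosomes, or are named for the nucleolus, the nuclear body where that happens. They were taken from the expression table by name alone: names of the Utp, Nop, Nol and Rrp series, RNA polymerase I subunits Polr1a to Polr1e, Imp3 and Imp4, and 11 further genes (Ncl, Npm1, Fbl, Dkc1, Gar1, Nhp2, Bop1, Pes1, Wdr12, Rrn3 and Myc). This gave 52 of the 13376 rows. The cells were C2C12, a mouse myoblast line, grown as proliferating myoblasts. They had received siRNA against the long noncoding RNA lnc-31 (2 libraries, here lnc-31 siRNA 1 and 2) or a scrambled siRNA (2 libraries, scrambled siRNA 1 and 2), and no other treatment or genotype is given for either group. The pull-down experiment of the series used C2C12 cells too, with 1 library of biotinylated antisense probes against lnc-31 and 1 of probes against bacterial lacZ, while its input library was not analysed here.

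Ribosome production starts when RNA polymerase I copies the repeated ribosomal RNA genes. The long precursor is then folded, chemically modified under the guidance of small nucleolar RNAs held in box C/D and box H/ACA particles, cut, and assembled with ribosomal proteins into the small and the large subunit. The transcription factor MYC drives many genes of this pathway in growing cells, and ribosome production is known to slow as myoblasts leave the cell cycle to form muscle. The table gives messages as FPKM, which are fragments scaled to transcript length and to the library. FPKM can be compared between genes, but they hold no count of reads, so the depth is unknown, and a change in total RNA per cell is not seen in them. Ribosomal RNA itself was not analysed here.

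The libraries had median FPKM of 10.8 and 11.0 with lnc-31 siRNA and 10.8 and 11.2 with scrambled siRNA. The row Mir31,XLOC_026180 at the lnc-31 locus stood at 12.1 and 14.1 FPKM with lnc-31 siRNA, against 13.4 and 15.6 FPKM with scrambled siRNA (limma, log2 fold change -0.14, adjusted p = 0.38), so this row does not show a fall of the targeted RNA, and the groups are named as labelled. On the first principal component (41.4% of the variance) lnc-31 siRNA 1 scored 39.1 and the other 3 libraries -16.3 to -10.4. On the second (35.9%) lnc-31 siRNA 1 and 2 scored 3.34 and -31.5, and scrambled siRNA 1 and 2 scored 0.124 and 28.0. Neither component grouped the libraries by siRNA. The myoblast genes Myod1, Des, Cdh15, Itga7, Myf5 and Sdc4 were all expressed, while Pax7 and Msc had no row. They summed to 498 and 510 FPKM with lnc-31 siRNA and 448 and 451 FPKM with scrambled siRNA, but did not move together. Myod1, Des and Cdh15 were higher with lnc-31 siRNA (limma, adjusted p under 0.05, 50% of the 6, against 5.64% of all tested rows). Itga7, Myf5 and Sdc4 did not pass, with log2 fold changes of 0.13, -0.10 and -0.09. Of 10 markers of blood, endothelial, epithelial and neural cells, 3 had a row (Cd68, Krt8 and Tubb3), with sums of 11.98 to 13.03 FPKM over the 4 libraries. Tubb3 made most of these sums, at 10.6 and 11.2 FPKM with lnc-31 siRNA and 10.4 and 11.2 FPKM with scrambled siRNA. Krt8, too low to be tested, stood at 0.540 and 0.517 FPKM with lnc-31 siRNA, against 0.0993 and 0.143 FPKM with scrambled siRNA. Cd68 stood at 1.27 and 1.14 FPKM with lnc-31 siRNA, against 1.49 and 1.65 FPKM with scrambled siRNA.

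The messages turned out to be abundant, and few differed between the groups. Of 51 members with a mean of 1 FPKM or more, 4 fell with lnc-31 siRNA and 0 rose (limma on log2(FPKM + 1), adjusted p under 0.05 over 11500 rows). Over all tested rows 6.78% were lower and 5.64% higher, so the 7.84% of members that fell is near the share of any gene. At an unadjusted p under 0.05, 8 members were lower (15.7%, against 16.4% of all tested rows) and 1 was higher (1.96%, against 14.5%), together 17.6% of members against 30.9% of rows. Those that fell were Myc, Utp3, Nop16 and Nop56, and none of the 4 reached 1.5-fold. Of the 1429 rows called in either direction, 169 did, so with 4 genes this lies near the background. In bulk libraries like these, fewer cells of a kind and less of a message per cell cannot be told apart.

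The promoters of the 3 falling genes that have an entry in the RefSeq promoter table, Utp3, Nop16 and Nop56, are given first because MYC, the fourth gene, binds the letters CACGTG (the E-box, the same on both strands) together with its partner MAX. Each sequence runs 5′ to 3′ on the gene's strand, from 250 bases before the annotated start to 50 bases after it. In Utp3 (chr5:88554212-88554511, plus strand, GRCm38.p6), Nop16 (chr13:54590025-54590324, minus strand) and Nop56 (chr2:130274162-130274461, plus strand) these letters do not occur in the window.
Utp3: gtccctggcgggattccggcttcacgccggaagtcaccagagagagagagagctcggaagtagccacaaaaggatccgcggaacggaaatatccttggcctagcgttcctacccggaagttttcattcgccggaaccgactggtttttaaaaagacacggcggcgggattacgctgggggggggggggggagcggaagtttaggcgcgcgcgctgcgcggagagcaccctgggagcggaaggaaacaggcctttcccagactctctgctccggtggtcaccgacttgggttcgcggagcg
Nop16: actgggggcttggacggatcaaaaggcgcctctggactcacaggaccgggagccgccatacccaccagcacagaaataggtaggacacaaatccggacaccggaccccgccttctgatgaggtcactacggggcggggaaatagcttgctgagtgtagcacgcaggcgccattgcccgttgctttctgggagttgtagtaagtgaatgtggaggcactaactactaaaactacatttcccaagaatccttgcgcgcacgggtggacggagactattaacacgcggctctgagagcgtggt
Nop56: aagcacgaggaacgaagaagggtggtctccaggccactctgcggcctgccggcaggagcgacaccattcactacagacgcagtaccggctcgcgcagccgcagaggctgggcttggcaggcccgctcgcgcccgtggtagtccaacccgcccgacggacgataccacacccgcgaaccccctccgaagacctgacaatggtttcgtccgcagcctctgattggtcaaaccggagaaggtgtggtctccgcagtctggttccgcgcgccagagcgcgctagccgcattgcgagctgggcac

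For comparison, 3 members that hold the E-box and did not pass the test are Rrn3, the initiation factor of RNA polymerase I, Nop2, a ribosomal RNA methyltransferase, and Pes1 of the large subunit pathway. Capitals mark CACGTG. Rrn3 (chr16:13780449-13780748, plus strand) has it at -215 and -48, counted from the start, Nop2 (chr6:125131633-125131932, plus strand) at -60 and Pes1 (chr11:3963725-3964024, plus strand) at 2 bases past the start.
Rrn3: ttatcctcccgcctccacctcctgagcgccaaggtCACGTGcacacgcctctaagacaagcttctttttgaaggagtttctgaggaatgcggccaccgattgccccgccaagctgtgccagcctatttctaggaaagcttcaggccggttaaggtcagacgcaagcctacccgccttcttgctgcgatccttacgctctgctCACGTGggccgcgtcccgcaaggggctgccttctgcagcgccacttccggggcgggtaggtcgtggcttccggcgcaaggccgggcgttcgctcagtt
Nop2: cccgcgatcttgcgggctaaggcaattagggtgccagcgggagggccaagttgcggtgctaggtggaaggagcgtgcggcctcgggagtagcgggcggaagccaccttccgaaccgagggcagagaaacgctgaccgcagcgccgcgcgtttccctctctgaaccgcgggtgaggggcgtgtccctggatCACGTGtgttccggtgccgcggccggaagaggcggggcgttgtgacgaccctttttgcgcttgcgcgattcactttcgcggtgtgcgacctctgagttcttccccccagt
Pes1: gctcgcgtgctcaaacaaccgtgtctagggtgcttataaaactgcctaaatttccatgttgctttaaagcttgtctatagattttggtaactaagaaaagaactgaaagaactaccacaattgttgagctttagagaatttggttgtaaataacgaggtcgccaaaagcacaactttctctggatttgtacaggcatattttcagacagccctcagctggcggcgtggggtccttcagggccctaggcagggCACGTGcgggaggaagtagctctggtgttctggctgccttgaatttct

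Of 41 members with an entry, 9 hold CACGTG (22.0%), namely Imp4, Nol11, Nop2, Pes1, Rrn3, Rrp7a, Utp14b, Utp18 and Utp20. The letters occur in 11.7% of 10062 genes of the expression table with an entry. In all 27025 genes of the promoter table the share is 8.09%. The 95% interval of the members' share ran from 10.6% to 37.6%. This interval treats the members as independent draws, which genes picked by name are not. It includes the 11.7%, so no difference from the genes of the expression table is shown. The 8.09% also covers genes without a row in that table. Its windows have a median share of G and C of 52.7%, against 57.8% in those of the members. The difference from the 8.09% was not tested. Counted by window, since a gene may have several, the shares are 18.8%, 9.87% and 7.15%. From 100 bases before the start to 50 after it, 7 members (17.1%) hold the letters, against 7.54% of the genes of the expression table. The differences in share by window and in this shorter stretch were not tested. None of the 9 members passed the test of the knockdown, where 12.4% of all rows did, so this count lies near the background and no difference from the falling genes is shown. Of the 9, Nop2 (limma, unadjusted p = 0.017) and Utp20 (0.036) were lower at an unadjusted p under 0.05, as were 16.4% of all rows. These matches describe the letters only, and Myc, Npm1, Fbl, Bop1, Nol3, Nol4, Nol6, Rrp12, Utp6, Utp11l and Utp23 have no entry.

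The members differed widely in level. The median member averaged 30.4 FPKM over the 4 libraries, against 11.0 FPKM for the median row. In the upper 50% of all rows stood 46 members, and in the upper 10% stood 10. Npm1 was highest, ranking 83 in the table, and Ncl ranked 251. By role, the mean FPKM had a median of 168 in the box C/D proteins, 67.4 in the box H/ACA proteins, 36.7 in the large subunit factors, 26.0 in the RNA polymerase I genes and 23.9 in the small subunit factors. The lowest was Nol4l, at 0.671 and 0.507 FPKM with lnc-31 siRNA and 0.338 and 0.464 FPKM with scrambled siRNA, which is under the filter and was the only member not tested.

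**Figure D1:**
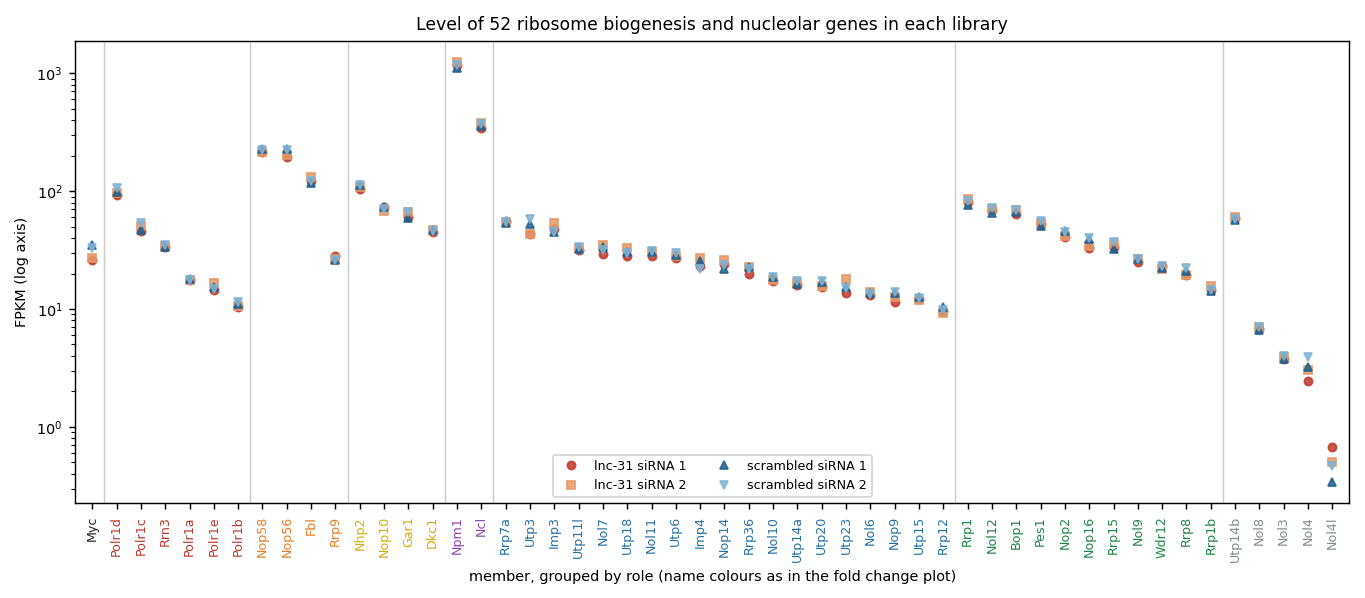
FPKM (log axis) of each of the 52 members in each of the 4 libraries, grouped by role and ordered by mean level within a role, with 1 symbol per library. Npm1 and Ncl stand highest, Nol4l lowest, and the 4 symbols of most members lie almost on each other.

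Myc encodes the growth regulator of the pathway. It stood at 26.0 and 27.2 FPKM with lnc-31 siRNA, against 34.7 and 32.8 FPKM with scrambled siRNA. Both lnc-31 siRNA libraries lay below both scrambled siRNA libraries. Of all tested rows 31.7% separated in this direction and 28.5% in the other, so a lack of overlap, here and below, says little by itself. Myc fell by 0.33 on the log2 scale (limma, SE 0.051, 95% interval -0.46 to -0.21, adjusted p = 0.018).

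Utp3, whose yeast relative belongs to the early small subunit precursor particle, had the lowest log2 fold change among the tested members on the log2(FPKM + 1) scale. By the ratio of the group means it was 22.2% lower, while Nol4, a low gene that did not pass the test, was 23.1% lower. It stood at 43.2 and 43.6 FPKM with lnc-31 siRNA, against 53.0 and 58.5 FPKM with scrambled siRNA, and the groups did not overlap. Its log2 fold change was -0.35 (limma, SE 0.056, 95% interval -0.49 to -0.21, adjusted p = 0.020).

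Nop16, a nucleolar protein of large subunit assembly, stood at 33.0 and 34.1 FPKM with lnc-31 siRNA, against 39.5 and 40.4 FPKM with scrambled siRNA. The groups did not overlap, and the log2 fold change was -0.24 (limma, SE 0.043, 95% interval -0.35 to -0.14, adjusted p = 0.025). Nop56, a core protein of the box C/D particles, stood at 196 and 203 FPKM with lnc-31 siRNA, against 226 and 224 FPKM with scrambled siRNA. It is abundant, and its groups did not overlap, with a log2 fold change of -0.17 (limma, SE 0.041, 95% interval -0.28 to -0.07, adjusted p = 0.049).

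With 2 libraries a group these calls were thin. Without scrambled siRNA 1, 1 of the 51 members was called lower, which was Utp3 (limma, adjusted p = 0.043), and when scrambled siRNA 2 or either lnc-31 siRNA library was left out the count was 0. At an unadjusted p under 0.05 these 4 fits had 4 to 7 members lower (7.84% to 13.7%, against 10.2% to 14.5% of all rows) and 0 to 3 higher (up to 5.88%, against 9.22% to 13.7%), in each fit and direction a smaller share than of all rows. Over all rows 780 were lower with the 4 libraries. Leaving out scrambled siRNA 1 gave 157 and scrambled siRNA 2 gave 97, and leaving out lnc-31 siRNA 1 gave 225 and lnc-31 siRNA 2 gave 242. The adjusted p of Myc ran from 0.0502 to 0.088 over these fits, that of Utp3 from 0.043 to 0.077, that of Nop16 from 0.0700 to 0.12 and that of Nop56 from 0.11 to 0.19. The log2 fold changes kept their sign in all 4 fits, at -0.37 to -0.30 for Myc, -0.42 to -0.28 for Utp3, -0.27 to -0.22 for Nop16 and -0.20 to -0.15 for Nop56. With a constant prior variance the count of members called lower was 2, Myc and Utp3.

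**Figure D2:**
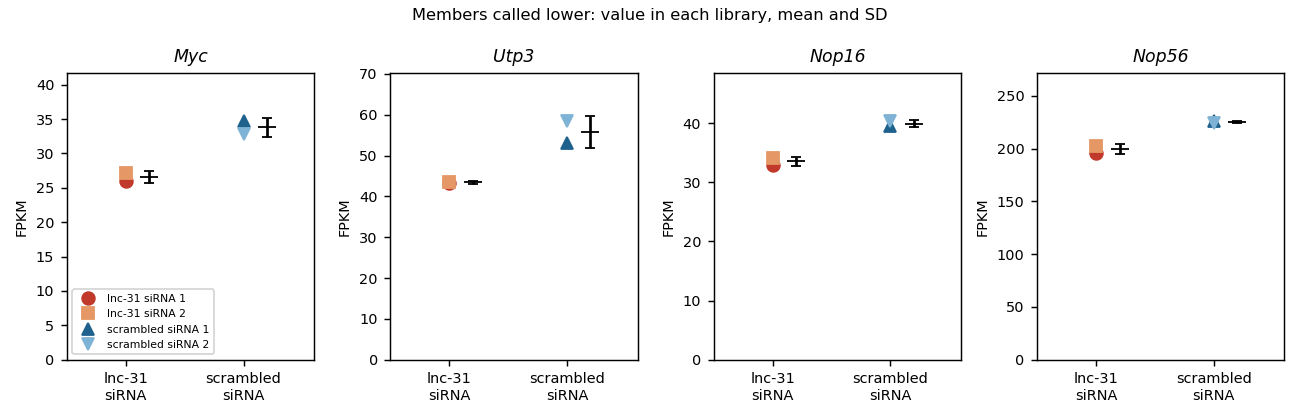
FPKM of Myc, Utp3, Nop16 and Nop56 in each library (symbols), with the mean and SD of the 2 libraries of each group beside them (black), and axes that start at 0. In each panel both lnc-31 siRNA libraries lie below both scrambled siRNA libraries.

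The RNA polymerase I genes gave 0 calls among 6 with limma, against 12.4% of all rows called in either direction, and 0 at an unadjusted p under 0.05, against 30.9%. With 6 genes a count of 0 calls lies near the background. Polr1a, the largest subunit and part of the catalytic centre, stood at 17.6 and 17.7 FPKM with lnc-31 siRNA, against 18.0 and 17.7 FPKM with scrambled siRNA (95% interval of the log2 fold change -0.13 to 0.10). Polr1b, the other catalytic subunit, stood at 10.3 and 10.6 FPKM with lnc-31 siRNA, against 10.9 and 11.4 FPKM with scrambled siRNA (-0.22 to 0.05). Rrn3, which carries the polymerase to the promoter, stood at 33.7 and 34.5 FPKM with lnc-31 siRNA, against 33.9 and 34.7 FPKM with scrambled siRNA (-0.11 to 0.10). These rows differed by little more than the libraries of a group did among themselves, except that the Polr1b groups did not overlap.

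Polr1c and Polr1d are shared with RNA polymerase III. Polr1c stood at 45.7 and 50.7 FPKM with lnc-31 siRNA, against 46.7 and 53.6 FPKM with scrambled siRNA (95% interval of the log2 fold change -0.26 to 0.15), and Polr1d at 93.4 and 97.0 FPKM with lnc-31 siRNA, against 99.1 and 105.6 FPKM with scrambled siRNA (-0.22 to 0.02). The Polr1d groups did not overlap, but the adjusted p was 0.22 (limma). Polr1e, an associated subunit, stood at 14.4 and 16.5 FPKM with lnc-31 siRNA, against 15.5 and 14.9 FPKM with scrambled siRNA (-0.16 to 0.20).

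In the box C/D particles, which guide ribose methylation, Nop56 was the only one of 4 members that passed (25%, against 12.4% of all rows). With 4 genes this share cannot be set apart from the background. Fbl, the methyltransferase fibrillarin, stood at 121.8 and 131.3 FPKM with lnc-31 siRNA, against 116.7 and 122.0 FPKM with scrambled siRNA. The groups overlapped, with a log2 fold change of 0.08 (95% interval -0.05 to 0.21). Nop58, the partner of Nop56 in these particles, had a log2 fold change of -0.08 (-0.17 to 0.02), and Rrp9, a protein particular to the U3 particle, one of 0.08 (-0.05 to 0.20). The difference of Nop56 from its partners was not tested.

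The box H/ACA particles, which guide the change of uridine to pseudouridine, gave 0 calls among 4 with limma, and 0 at an unadjusted p under 0.05 (12.4% and 30.9% of all rows). Dkc1, the pseudouridine synthase dyskerin, stood at 45.3 and 46.4 FPKM with lnc-31 siRNA, against 47.0 and 46.2 FPKM with scrambled siRNA (95% interval of the log2 fold change -0.12 to 0.08). Gar1 stood at 60.3 and 66.9 FPKM with lnc-31 siRNA, against 59.4 and 67.0 FPKM with scrambled siRNA (-0.18 to 0.20). The spread of Gar1 lay within the groups, not between them. Nhp2 stood at 104.3 and 107.4 FPKM with lnc-31 siRNA, against 112.5 and 112.0 FPKM with scrambled siRNA (-0.18 to 0.01), without overlap and with an adjusted p of 0.21 (limma). Nop10, the smallest of these proteins, had a log2 fold change of -0.03.

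Npm1 and Ncl encode nucleophosmin and nucleolin, the most plentiful proteins of the nucleolus. Npm1 stood at 1174 and 1251 FPKM with lnc-31 siRNA, against 1112 and 1181 FPKM with scrambled siRNA (95% interval of the log2 fold change -0.07 to 0.24). Ncl stood at 345 and 378 FPKM with lnc-31 siRNA, against 353 and 372 FPKM with scrambled siRNA (-0.16 to 0.15). The groups overlapped for both genes.

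Among 19 small subunit factors 1 fell, Utp3 (5.26%, near the 6.78% of all rows), and the median log2 fold change was -0.05. The lowest values after Utp3 were those of Nop9 (-0.17, limma adjusted p = 0.13) and Utp20 (-0.13, adjusted p = 0.13), and the highest those of Imp3 (0.16, adjusted p = 0.16) and Nop14 (0.13, adjusted p = 0.20). Imp3, a protein of the U3 particle, stood at 47.4 and 53.7 FPKM with lnc-31 siRNA, against 45.0 and 44.9 FPKM with scrambled siRNA. Its groups did not overlap, while Imp4, its partner, overlapped at 23.2 and 27.0 FPKM with lnc-31 siRNA, against 25.6 and 21.8 FPKM with scrambled siRNA. The other 14 (Utp6, Utp11l, Utp14a, Utp15, Utp18, Utp23, Nol6, Nol7, Nol10, Nol11, Rrp7a, Rrp12, Rrp36 and Imp4) had log2 fold changes from -0.09 (Rrp12) to 0.08 (Imp4).

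Among 11 large subunit factors 1 fell, Nop16 (9.09%, near the 6.78% of all rows), and the median log2 fold change was -0.02. Bop1, Pes1 and Wdr12 form a complex needed for maturing the large subunit. Bop1 stood at 63.5 and 68.6 FPKM with lnc-31 siRNA, against 66.9 and 69.0 FPKM with scrambled siRNA (95% interval of the log2 fold change -0.17 to 0.09). Pes1 stood at 53.0 and 54.0 FPKM with lnc-31 siRNA, against 51.0 and 55.2 FPKM with scrambled siRNA (-0.12 to 0.14). Wdr12 stood at 23.1 and 21.7 FPKM with lnc-31 siRNA, against 22.3 and 23.2 FPKM with scrambled siRNA (-0.15 to 0.11). All 3 overlapped between the groups.

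Nop2 and Rrp8, both methyltransferases of ribosomal RNA, came nearest to the threshold in this class. Nop2 stood at 41.2 and 41.5 FPKM with lnc-31 siRNA, against 45.5 and 45.2 FPKM with scrambled siRNA (log2 fold change -0.13, limma adjusted p = 0.085). Rrp8 had a log2 fold change of -0.15 (limma adjusted p = 0.11), and both genes had groups that did not overlap. Nol9, Nol12, Rrp1, Rrp1b and Rrp15 had log2 fold changes from -0.05 (Nol9) to 0.07 (Rrp1).

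5 members carry a pathway name but have another or a less defined role, or a row that is not theirs alone. Nol3 encodes an apoptosis repressor of muscle and heart, and stood at 3.77 and 3.89 FPKM with lnc-31 siRNA, against 3.75 and 3.96 FPKM with scrambled siRNA. Nol4, at 2.47 and 3.02 FPKM with lnc-31 siRNA and 3.21 and 3.94 FPKM with scrambled siRNA (log2 fold change -0.29, limma adjusted p = 0.17), and Nol4l are not known as ribosome assembly factors. Utp14b is merged in 1 row with its neighbour Acsl3, a fatty acid ligase, so its FPKM of 59.5 and 59.8 with lnc-31 siRNA, against 56.4 and 58.1 with scrambled siRNA, cannot be given to either gene. Nol8, a nucleolar protein, had a log2 fold change of 0.01.

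**Figure D3:**
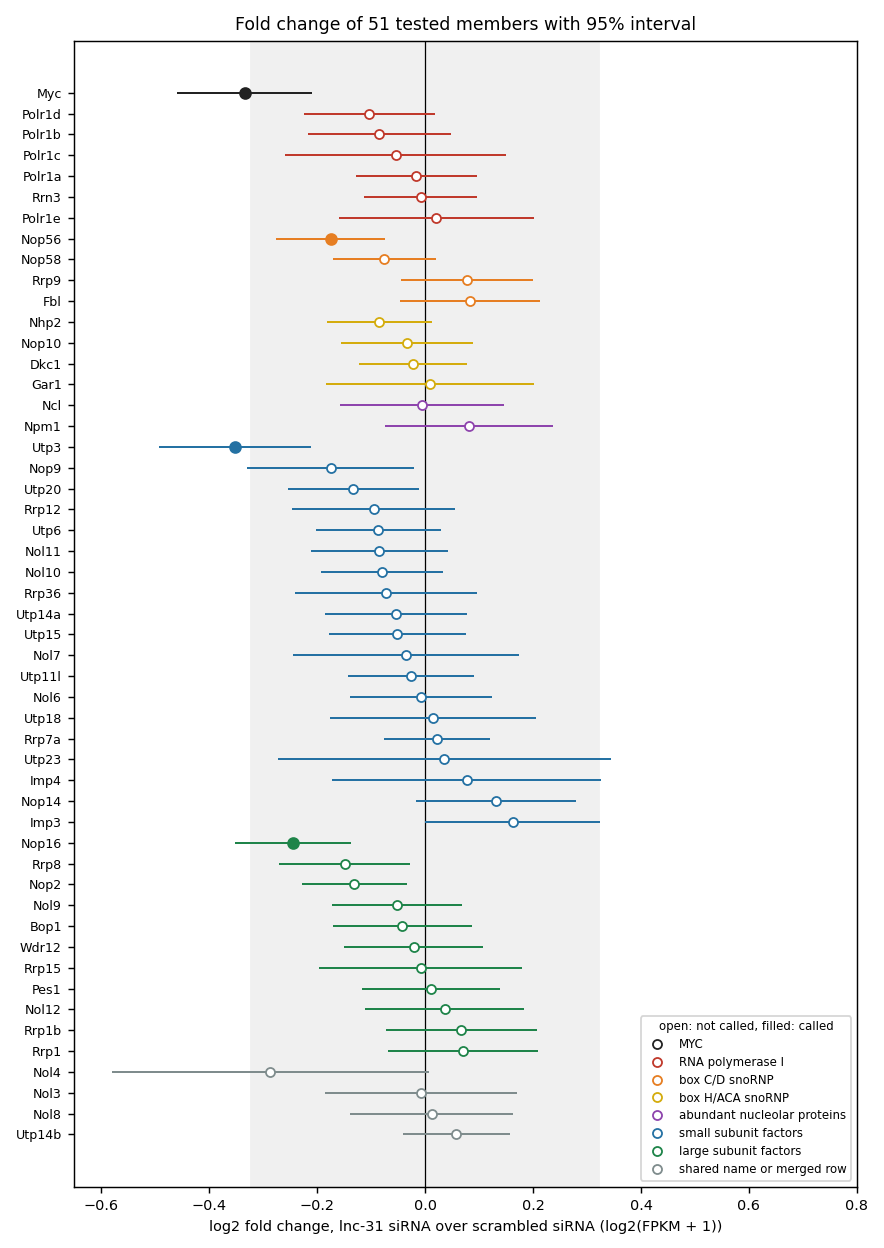
Log2 fold change (lnc-31 siRNA over scrambled siRNA, points) and its 95% limma interval (bars) for 51 tested members, coloured by role, with filled points for the 4 called members and a grey band at 1.25-fold either way. For 43 members the whole interval lies within the band.

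The intervals rest on the spread between libraries, which may be technical, and give the range of change that fits this spread. For 43 of the 51 tested members (84.3%), the called Nop56 among them, the whole 95% interval lay inside 1.25-fold either way on the log2(FPKM + 1) scale, against 62.6% of all tested rows. The exceptions were Myc, Utp3, Nop16, Nop9, Nol4, Imp3, Imp4 and Utp23. Members were also more abundant (median 30.4 FPKM, against 11.0 FPKM for all rows), and the part of level in the 84.3% was not tested. Utp23, at 13.6 and 18.1 FPKM with lnc-31 siRNA and 15.4 and 15.2 FPKM with scrambled siRNA, had the widest interval (-0.27 to 0.34), and its spread lay within the lnc-31 siRNA group. The median member had a log2 fold change of -0.03, against -0.01 for all tested rows, and 34 members (66.7%) had a value below 0, against 51.8% of all tested rows.

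The groups did not overlap in 19 members that were lower (37.3%) and in 5 that were higher (9.80%) with lnc-31 siRNA. Over all tested rows these shares were 31.7% and 28.5%. lnc-31 siRNA 2 lay above lnc-31 siRNA 1 in 45 of 51 members, by a median of 0.05 on the log2 scale. It did so in 66.1% of all rows, by a median of 0.04. Scrambled siRNA 2 lay above scrambled siRNA 1 in 31 of 51 members, against 68.4% of all rows. Without lnc-31 siRNA 1 the median log2 fold change of the members was 0.01, against 0.01 for all rows, and without lnc-31 siRNA 2 it was -0.07, against -0.03 for all rows.

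Markers of the state of the cells differed between the groups. All 9 muscle differentiation markers with a row (Myog, Myh3, Actc1, Mylpf, Ckm, Tnnt3, Acta1, Tnnc2 and Tmem8c) rose (limma, adjusted p from 0.0030 to 0.013), summing to 443 and 461 FPKM with lnc-31 siRNA, against 246 and 278 FPKM with scrambled siRNA, and all 9 were called higher in each of the 4 fits that left out 1 library. Of 12 cell cycle markers 10 fell, with sums of 1038 and 1095 FPKM with lnc-31 siRNA, against 1243 and 1252 FPKM with scrambled siRNA. Fits without scrambled siRNA 1 or without scrambled siRNA 2 called 0 of the 12 lower by limma (10 each at an unadjusted p under 0.05, where 14.5% and 10.2% of all rows were lower), the fit without lnc-31 siRNA 1 called 1 and the fit without lnc-31 siRNA 2 called 2. The median log2 fold change was 0.73 for the differentiation markers, -0.24 for the cell cycle markers and -0.03 for the members. The part of these markers in the fall of Myc, Utp3, Nop16 and Nop56 was not tested.

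**Figure D4:**
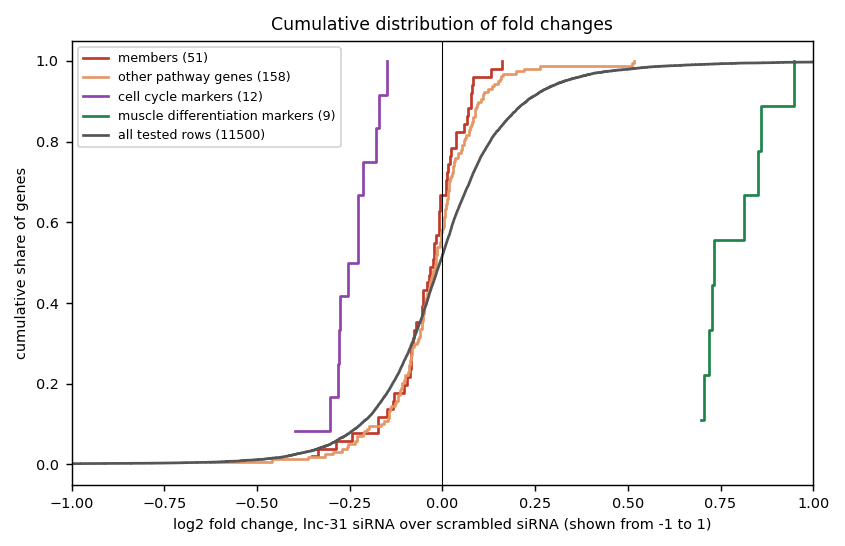
Cumulative share of genes by log2 fold change (lnc-31 siRNA over scrambled siRNA, from -1 to 1) for the members, 158 other pathway genes, both marker lists and all 11500 tested rows. The members and the other pathway genes rise steeply near 0 (medians -0.03 and -0.02), between the cell cycle markers (-0.24) and the muscle differentiation markers (0.73).

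Other genes, of the pathway and around MYC, were read from 7 lists, with 158 tested rows that are not members. Of these, 11 fell (6.96%, against 6.78% of all rows) and 2 rose (1.27%, against 5.64%), with a median log2 fold change of -0.02. Most of these calls came from the MYC lists, where the MYC network had 1 lower and 2 higher of 11. The MYC targets outside the nucleolus had 6 lower of 21. The nearness of the share that fell to that of all rows thus describes the pooled lists. Limma called 0 of 13 partners of RNA polymerase I (1 at an unadjusted p under 0.05) and 0 of 37 further small subunit factors (5), where 30.9% of all rows reach that unadjusted p. Among further large subunit factors 1 of 46 fell, the row merging Rsl24d1 with Gm20509 and Khdc3, and among snoRNP assembly and nucleolar phosphoproteins 1 of 15 fell, Nucks1, a chromatin-bound phosphoprotein. Of the 158, 2 were lower when scrambled siRNA 1 was left out and 1 when scrambled siRNA 2 was. Leaving out lnc-31 siRNA 1 gave 2, and leaving out lnc-31 siRNA 2 gave 3.

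The RNA exosome, which trims ribosomal RNA precursors among many other RNAs, had 2 of 15 genes lower (13.3%, against 6.78% of all rows). Dis3, its catalytic subunit, stood at 22.4 and 21.8 FPKM with lnc-31 siRNA, against 27.0 and 26.3 FPKM with scrambled siRNA (limma, log2 fold change -0.26, adjusted p = 0.024). Exosc7, a subunit of its ring, stood at 18.6 and 19.6 FPKM with lnc-31 siRNA, against 22.5 and 24.1 FPKM with scrambled siRNA (log2 fold change -0.27, limma adjusted p = 0.037). The groups did not overlap for either gene, and both calls were lost whichever library was left out. With 15 genes the 13.3% cannot be set apart from the background. At an unadjusted p under 0.05, 3 of the 15 were lower (limma, against 16.4% of all rows). Exosc4, Exosc9 and Mphosph6 were higher at that threshold (log2 fold changes 0.15, 0.14 and 0.12), as were 14.5% of all rows.

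In the network of MYC and its dimer partners, 2 of 11 genes rose and 1 fell (27.3% called, against 12.4% of all rows). Mxd4, an antagonist that competes for MAX, stood at 14.4 and 15.8 FPKM with lnc-31 siRNA, against 9.44 and 11.1 FPKM with scrambled siRNA (limma, log2 fold change 0.52, adjusted p = 0.024). Mycl, a relative of Myc, stood at 5.56 and 6.04 FPKM with lnc-31 siRNA, against 3.94 and 3.61 FPKM with scrambled siRNA (log2 fold change 0.51, limma adjusted p = 0.018). Mxd3, an antagonist expressed in dividing cells, stood at 15.7 and 16.3 FPKM with lnc-31 siRNA, against 21.7 and 23.1 FPKM with scrambled siRNA (log2 fold change -0.46, limma adjusted p = 0.010). The groups did not overlap for any of these 3 genes. Max itself stood at 35.1 and 36.8 FPKM with lnc-31 siRNA, against 34.2 and 33.3 FPKM with scrambled siRNA (limma adjusted p = 0.26). With each library left out, Mxd3 was called in 3 of 4 fits (adjusted p up to 0.059), and Mxd4 (up to 0.089) and Mycl (up to 0.078) in 1 of 4 each.

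Of 21 known MYC targets outside the nucleolus, 6 fell (28.6%, against 6.78% of all rows) and 0 rose (against 5.64%). At an unadjusted p under 0.05, 8 of the 21 were lower (limma, 38.1%, against 16.4% of all rows). Counted in either direction the share was the same 38.1%, against 30.9% of all rows. The median log2 fold change was -0.08, against -0.01 for all rows. This list was chosen with earlier results of these data known. Paics, Gart, Impdh2 and Prps1 make purine nucleotides or their sugar precursor, Umps makes pyrimidines, and Tfrc takes up iron. Paics stood at 93.0 and 94.6 FPKM with lnc-31 siRNA, against 144.3 and 146.5 FPKM with scrambled siRNA. It had the largest fall of the 158 genes (limma, log2 fold change -0.63, SE 0.038, adjusted p = 0.0036), and it was the only target still called whichever library was left out (adjusted p from 0.014 to 0.031), which leaves a count of 1 in each of those 4 fits. Prps1 had a log2 fold change of -0.32, Umps of -0.26, Impdh2 of -0.24, and Gart and Tfrc of -0.23 each. Odc1 and Srm of polyamine synthesis, Cad of pyrimidine synthesis, Ldha and Cdk4 did not pass, with log2 fold changes from -0.08 (Cdk4) to 0.01 (Srm).

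The pull-down asked which RNAs were recovered with lnc-31 probes, with 1 library per probe set and thus no test. The lists hold 596 peaks with lnc-31 probes and 476 with lacZ probes. No member held a lnc-31 probe peak in its gene body, against 1.78% of the 12676 rows of the table matched to RefSeq (1.61% counting peaks free of lacZ overlap), so a count of 0 of 52 lies near the background. None of the 158 other pathway rows held a lnc-31 probe peak either. With lacZ probes 1 member had peaks, against 1.72% of rows. That was Rrp15 (chromosome 1, 186721086 to 186749358, mm10), a large subunit factor, with 2 peaks of 200 bases at 186723201 to 186723400 and 186734601 to 186734800. The deposited values read as p were 0.00035 and 0.00067. Members had shorter gene bodies (median 14.3 kb, from 0.899 kb in Imp3 to 349 kb in Nol4) than rows with a lnc-31 probe peak (43.3 kb) or all matched rows (21.7 kb). Rows with a lnc-31 probe peak had a median level of 16.6 FPKM, against 11.8 FPKM for all matched rows and 30.4 FPKM for the members. The parts of gene length and of level in the count were not tested.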

How the data were processed

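Per the labels' protocols, a stranded mRNA kit was used for the 4 knockdown libraries and an amplification kit for those of the pull-down. The authors deposited FPKM for the knockdown. The submitters' processing notes list Cuffdiff, TopHat2, Bowtie2, BWA, Trimmomatic and CASAVA with the build mm10, and no order or version. The deposited peak lists hold a seventh column without a name, read as a p-value from its range alone. No source used here names the peak caller.

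FPKM give no read depth, so precision rests on the spread between libraries, which may be technical, since separate cultures are not stated. There were 0 sample columns without a label. The 11500 rows with a mean of at least 1 FPKM were set on the log2(FPKM + 1) scale, which understates changes of low genes. They were fitted with limma 3.58.1 (R 4.3.3) using a trended prior, two-sided, with Benjamini-Hochberg adjustment over all rows at 0.05, and every adjusted p is from this test. The script was tested on simulated data. By rule, every member was accounted for, with full values for called members, the genes named singly, the Polr1 rows and the highest and lowest member, and up to 4 called genes per other list. Values of further genes (Imp3, Imp4, Nop2, Nol3, Nol4, Utp14b, Utp23, Max and uncalled MYC targets) were added after they were seen. The members and lists were chosen with earlier results of these data known.

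Peaks were overlapped by 1 base or more with RefSeq gene spans on GRCm38.p6, which has the coordinates of mm10, and all 52 members matched a gene. Promoters are RefSeq windows of that build. Scripts ran in Python 3.11.15 with matplotlib 3.10.9, pandas 2.3.3 and numpy 2.4.6. Each library was left out in turn, and the replicate block, other pseudocounts (0.1, 0.5), filters (none, 5 FPKM), priors and scalings, overlaps and promoter windows were tried.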

Additional observations from a re-analysis of the deposited data

How the results depend on the processing

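Results were refitted under each alternative. The 4 falls among members kept their direction in all 48 refitted values, no uncalled member became called, and no called value changed sign. Among uncalled members 36 of the refitted values changed sign without a call. With a constant prior variance 2 members and 5 other pathway genes were lower, in place of 4 and 11, and with a mean of 5 FPKM or more 1 other pathway gene was higher, in place of 2. Nop56 lost its call without a filter (limma adjusted p = 0.055) and with a constant prior variance (0.092), and Nop16 lost its call with that prior (0.051). With 1 library left out, 132 to 266 rows were higher (649 with all 4) and 97 to 242 lower (780), 0 to 1 members were lower, and 0 to 2 other pathway genes were higher and 1 to 3 lower. These fits have fewer samples.

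The labels do not say that replicate numbers pair the libraries, and the deviations of the 2 libraries numbered 1 from their group means had a correlation of -0.094 across rows. With the replicate block, 728 rows were higher and 885 lower, 0 members were higher and 4 lower, and 3 other pathway genes were higher and 12 lower.

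The peak counts were the same under the other overlap rules. The number of libraries limits what can be called.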

Other observations

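A few small RNAs without a poly(A) tail were uneven across libraries, among them an RNA of ribosome production. Rmrp, the RNA of the enzyme that cuts the ribosomal RNA precursor, stood at 3.37 and 1.46 FPKM with lnc-31 siRNA, and at 62.7 FPKM in scrambled siRNA 1 and 1.09 FPKM in scrambled siRNA 2. Rpph1, the RNA of RNase P, stood at 0.522 and 0.288 FPKM with lnc-31 siRNA, and at 3.41 and 0.318 FPKM with scrambled siRNA. Rn7sk, an RNA that restrains transcription by RNA polymerase II, stood at 4.41 and 4.89 FPKM with lnc-31 siRNA, and at 64.0 and 5.99 FPKM with scrambled siRNA. All 3 were highest in scrambled siRNA 1. Scrambled siRNA 2 stood apart in another row, mt-Nd2, a mitochondrial message for a subunit of respiratory complex I, at 3253 and 2876 FPKM with lnc-31 siRNA, and at 3401 FPKM in scrambled siRNA 1 and 395110 FPKM in scrambled siRNA 2. These rows were chosen after their values were seen. Without scrambled siRNA 1 the log2 fold changes of Myc, Utp3, Nop16 and Nop56 were -0.30, -0.42, -0.26 and -0.17, and without scrambled siRNA 2 they were -0.37, -0.28, -0.23 and -0.18.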
